A study of Mus musculus with 40 samples.

Results

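*Adipoq*, *Lep*, *Retn*, *Cfd*, *Rbp4*, *Apln* and *Nampt* encode classical adipokines, proteins that fat cells release into the blood, and their transcript levels in brown adipose tissue (BAT) are described here across 8 groups of 5 mice. The genes were chosen by symbol from the 20295 genes of the count table, and all 7 were present and had enough counts to be tested. Adiponectin (*Adipoq*) raises insulin sensitivity, leptin (*Lep*) tells the brain how much fat is stored, and resistin (*Retn*) is linked to insulin resistance in mice. Complement factor D (*Cfd*, also called adipsin) is a protease of the alternative complement pathway, retinol binding protein 4 (*Rbp4*) carries vitamin A in plasma, apelin (*Apln*) is a peptide that acts on vessels and heart, and *Nampt* makes an NAD precursor inside cells and is also secreted as visfatin. White fat is a known source of these proteins, and brown fat, which burns lipid to make heat, expresses their genes as well.

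Male mice were kept at 29 °C, and each diet was combined with a genetic and with a pharmacological activation of BAT. C-3BO mice carry a *Gpr3* transgene at the *Rosa26* locus that *Ucp1*-Cre switches on in brown and beige adipocytes so that this constitutively active receptor is overexpressed. Their control littermates carry either the silent transgene without Cre or Cre without the transgene, and both genotypes were 13 to 19 weeks old and received no injection. The injected mice were labelled wildtype and described in the study's methods as 15-week-old control littermates of an inducible *Gpr3* line, and they received saline or CL-316,243 (CL), a β3-adrenergic agonist, at 1 mg/kg daily for 9 days. HFD groups ate a diet with 60 kcal% fat for the last 7 days, and tissue of the injected mice was taken the day after the final injection. Each diet thus held control, C-3BO, saline and CL mice, which are named chow control, HFD C-3BO and so on.

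Library totals lay between 849126 and 15260516 counts, and 3 counts, the lowest level taken as measurable, equalled 0.206 to 3.01 CPM, which are counts scaled to the library total with a TMM factor. The lowest total was that of HFD saline replicate 4, and every other library had 3391730 counts or more. *Ucp1*, which defines brown adipocytes, was present in every library at 1116 to 15800 CPM, and *Wt1*, a marker of visceral fat, never exceeded 0.157 CPM. CL replicate 5 on chow had 1644 CPM of *Ucp1*, within the 1267 to 1865 CPM of the saline group, while the other 4 mice of its group reached 5943 CPM or more. *Gpr3* was at 266 to 463 CPM in chow C-3BO and 688 to 918 CPM in HFD C-3BO mice. Outside the C-3BO groups it reached 9.15 CPM (99 counts) in chow CL replicate 3 and at most 1.18 CPM in any other library. The 12 libraries of HFD saline, HFD CL and replicates 4 and 5 of HFD C-3BO had the lowest totals and held transcripts of liver (*Alb*, 62.2 to 294 CPM, against at most 1.62 CPM elsewhere) and of epididymis (*Lcn8*, absent elsewhere). In the injected mice this set of libraries and the diet cannot be told apart. *Ckm*, a muscle transcript, ran from 91.9 to 1354 CPM in chow control mice and from 0.37 to 19.6 CPM in HFD control mice. In bulk tissue, fewer cells of one type and less RNA per cell give the same reading.

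Each gene was counted on the exons of 1 RefSeq transcript on mm9. *Adipoq* lies at chr16:23146609-23158041 on the plus strand, *Lep* at chr6:29010221-29023876 (plus), *Retn* at chr8:3655770-3659818 (plus), *Cfd* at chr10:79353598-79355405 (plus), *Rbp4* at chr19:38191110-38199811 (minus), *Apln* at chrX:45378323-45388029 (minus) and *Nampt* at chr12:33505200-33538234 (plus). Only *Nampt* overlaps another annotated gene, the noncoding *Gdap10* on the same strand, with which it may share reads. The windows from 250 bases before to 50 bases after the start are shown for the 5 genes that changed most with treatment, 5′ to 3′ on the strand of the gene. Windows were read from mm9 at the start of the counted transcript, except that for *Rbp4* the second RefSeq start, 510 bases downstream, is shown. Capitals mark matches, on either strand, to TATAA (the TATA box), TTGCNNAA (bound by C/EBP factors), TGACG (part of the cAMP response element), TGANTCA (AP-1) and AGGTCA (bound by nuclear receptors).

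Lep, chr6:29009971-29010270, plus strand: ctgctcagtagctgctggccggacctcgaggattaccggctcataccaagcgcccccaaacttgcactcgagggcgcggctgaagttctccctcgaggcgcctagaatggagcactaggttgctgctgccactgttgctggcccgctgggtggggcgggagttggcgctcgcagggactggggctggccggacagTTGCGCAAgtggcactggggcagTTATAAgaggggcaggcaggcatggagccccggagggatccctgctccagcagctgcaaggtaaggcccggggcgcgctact
Rbp4, chr19:38199252-38199551, minus strand: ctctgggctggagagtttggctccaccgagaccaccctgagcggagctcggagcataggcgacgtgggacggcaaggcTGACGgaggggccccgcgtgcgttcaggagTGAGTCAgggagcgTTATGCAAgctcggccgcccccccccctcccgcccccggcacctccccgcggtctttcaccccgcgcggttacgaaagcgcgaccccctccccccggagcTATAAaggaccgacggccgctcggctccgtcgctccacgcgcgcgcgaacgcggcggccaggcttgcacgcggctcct
Apln, chrX:45387980-45388279, minus strand: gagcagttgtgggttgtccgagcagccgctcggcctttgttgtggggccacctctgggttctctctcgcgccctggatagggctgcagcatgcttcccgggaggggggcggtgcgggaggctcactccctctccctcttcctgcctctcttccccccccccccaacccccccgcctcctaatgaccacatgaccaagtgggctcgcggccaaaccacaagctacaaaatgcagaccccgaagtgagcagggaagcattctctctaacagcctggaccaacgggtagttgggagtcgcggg
Nampt, chr12:33504950-33505249, plus strand: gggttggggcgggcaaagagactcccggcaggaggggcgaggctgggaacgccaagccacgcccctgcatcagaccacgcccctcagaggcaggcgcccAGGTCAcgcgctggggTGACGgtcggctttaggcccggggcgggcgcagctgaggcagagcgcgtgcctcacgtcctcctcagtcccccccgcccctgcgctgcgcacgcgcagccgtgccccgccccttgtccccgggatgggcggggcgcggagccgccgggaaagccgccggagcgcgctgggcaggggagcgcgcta
Cfd, chr10:79353348-79353647, plus strand: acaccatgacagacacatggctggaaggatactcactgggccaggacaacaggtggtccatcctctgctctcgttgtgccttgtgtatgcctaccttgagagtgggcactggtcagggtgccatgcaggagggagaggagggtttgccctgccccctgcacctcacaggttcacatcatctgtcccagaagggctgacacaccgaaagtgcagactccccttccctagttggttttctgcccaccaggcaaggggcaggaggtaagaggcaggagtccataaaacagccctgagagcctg

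The *Lep* window held a C/EBP match at -55 and, overlapping on its 2 strands, TATA matches at -32 and -31. The downstream *Rbp4* window held TGACG at -172, an AP-1 match at -142, a C/EBP match at -128 and a TATA match at -28, whereas the window at the upstream start used for counting held none of the 5. *Nampt* held AGGTCA at -151 and TGACG at -135. None of the 5 letter patterns occurred in the *Apln*, *Cfd*, *Adipoq* or *Retn* windows. Over all 32851 RefSeq windows of GRCm38.p6 with the same length, TATAA was found in 24.9%, TTGCNNAA in 10.8%, TGACG in 20.8%, TGANTCA in 7.81% and AGGTCA in 16.3%, so these matches are common and are given as a description.

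Per kilobase of counted exon, *Cfd* and *Adipoq* were the most abundant of the 7 genes and *Apln* the least. The mean level over 40 libraries was 1001 CPM per kb for *Cfd* and 908.8 CPM per kb for *Adipoq*, which placed them 51st and 63rd of 13277 tested genes. *Rbp4* followed with 151 CPM per kb, *Nampt* with 95.4, *Retn* with 83.5 and *Lep* with 64.0 CPM per kb. *Apln* reached 5.69 CPM per kb and ranked 7760th. The spread among the 5 mice of a group differed between genes. The mean coefficient of variation within groups was 12.6% for *Adipoq* and 13.3% for *Nampt*, but 56.5% for *Lep*, whose lowest and highest libraries in all had 8.13 and 859 CPM.

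**Figure D1:**
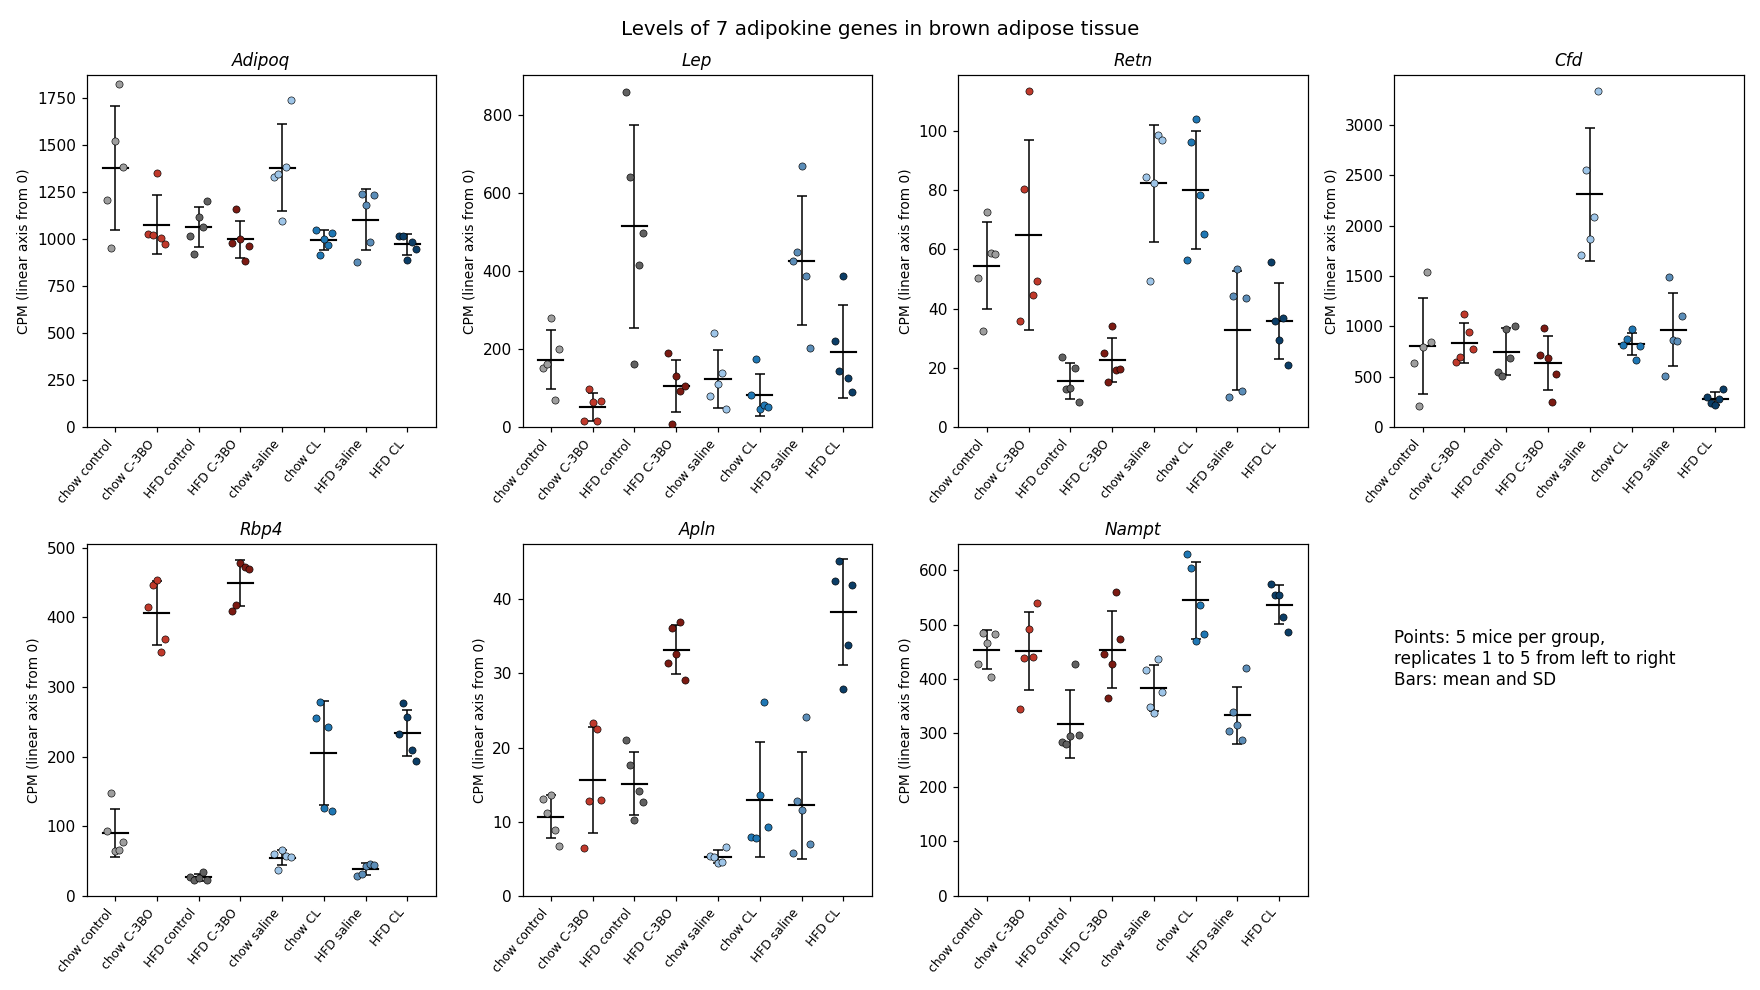
Level of each adipokine gene in CPM (vertical axis, linear from 0) in 8 groups of 5 mice (horizontal axis), with a point per mouse and the mean and SD as bars. *Rbp4* stood above its controls in every C-3BO and CL mouse, *Lep* was highest in HFD control and HFD saline mice, and *Adipoq* differed little between groups, with group means from 970.5 to 1378 CPM.

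The first question was whether the genetic and the pharmacological activation of BAT change the adipokine transcripts in the same way. A gene was called changed at an edgeR adjusted p under 0.05 over all tested genes, in either direction. On chow, C-3BO mice had 1 of 7 genes higher and 2 lower than control, and across all tested genes 15.8% were higher and 15.9% lower. On HFD, 3 were higher and 1 was lower, beside 19.3% and 15.5% of all genes. CL raised 3 and lowered 2 of 7 on chow, beside 9.16% and 6.13% of all genes, and raised 3 and lowered 1 on HFD, beside 12.7% and 10.8%. The median log2 fold change of the 7 genes was 0.06 and 0.52 for C-3BO on chow and HFD and -0.04 and 0.04 for CL, with a median over all genes between -0.03 and -0.01. With library totals alone as the scale, the median of all genes moved to between -0.23 and -0.15 in these 4 comparisons, and the share of called genes that were higher fell from 49.8 to 59.9% to a range of 20.2 to 30.1%, while the direction of every call among the 7 genes was kept.

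**Figure D2:**
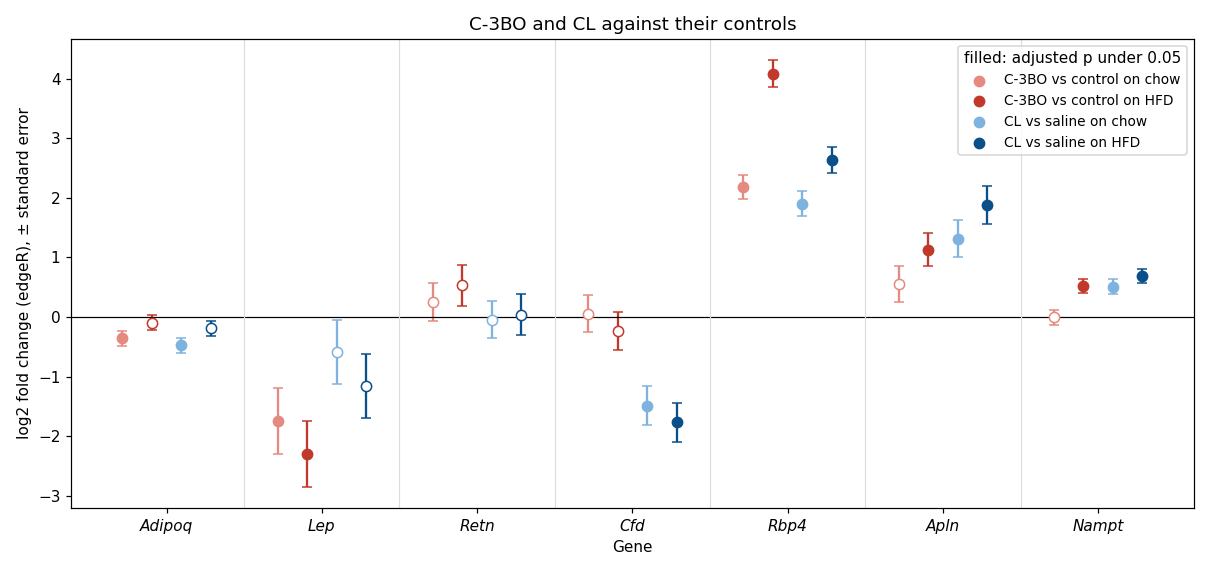
Log2 fold change with its standard error (vertical axis) for each of 7 genes (horizontal axis) in C-3BO against control and CL against saline mice on each diet. Filled points passed an edgeR adjusted p of 0.05. *Rbp4* was raised in all 4 comparisons, *Lep* passed in both C-3BO comparisons and *Cfd* in both CL comparisons.

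*Rbp4*, which carries retinol in plasma and is made mainly by liver and fat, rose most. Its level in HFD C-3BO mice was 408.7, 417.4, 478.4, 473.1 and 469.6 CPM, against 26.9, 23.0, 25.8, 34.0 and 22.4 CPM in HFD control mice. On chow it was 415, 446, 454, 350.0 and 369 CPM in C-3BO mice and 92.8, 148, 64.7, 65.6 and 77.6 CPM in control mice. Neither pair of groups overlapped, and the chow C-3BO mouse with the least *Rbp4* had more than any control mouse. The log2 fold change was 4.08 (SE, the standard error, 0.22, edgeR adjusted p = 1.01e-16), a 17.0-fold rise, on HFD, and 2.18 (SE 0.20, edgeR adjusted p = 4.30e-10), a 4.54-fold rise, on chow. The effect on HFD exceeded that on chow by 1.90 (SE 0.28, edgeR adjusted p = 8.67e-05). Control mice were 3.38-fold higher on chow than on HFD, whereas C-3BO mice held 449 ± 33.5 CPM (SD, n = 5) on HFD and 407 ± 46.1 CPM (SD, n = 5) on chow.

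CL raised *Rbp4* as well, to a lower level than in C-3BO mice. With CL it reached 255, 278, 127, 242 and 122 CPM on chow and 232.5, 277, 256.5, 209.9 and 194 CPM on HFD. With saline it was 60.1, 36.5, 65.1, 56.5 and 55.1 CPM on chow and 28.2, 30.5, 42.9, 46.1 and 43.8 CPM on HFD. Again no CL mouse fell into the saline range, and chow CL replicates 3 and 5 were the lowest. The log2 fold change was 1.90 (SE 0.20, edgeR adjusted p = 5.67e-08) on chow and 2.64 (SE 0.22, edgeR adjusted p = 5.44e-11) on HFD. Without chow CL replicate 5 the first was 2.04. The effect of C-3BO was larger than that of CL on HFD by 1.44 (SE 0.29, edgeR adjusted p = 0.00472), and on chow the difference of 0.28 had an interval from -0.27 to 0.83 (95%, unadjusted, edgeR adjusted p = 0.623). In the order of the 8 group means, only HFD C-3BO and chow C-3BO, and HFD CL and chow CL, were neighbours closer than 1 SD.

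Since *Rbp4* is also a liver transcript, its level was set beside that of the liver list. The 16 liver genes summed to 113 to 316 CPM in HFD saline, 263 to 535 CPM in HFD CL, 83.0 to 549.9 CPM in HFD C-3BO and 11.1 to 33.2 CPM in HFD control mice. In HFD saline and HFD control mice *Rbp4* was 38.3 ± 8.29 CPM (SD, n = 5) and 26.4 ± 4.63 CPM (SD, n = 5). HFD C-3BO replicates 1 to 3, with at most 1.59 CPM of *Alb*, had 408.7 to 478.4 CPM of *Rbp4*, and replicates 4 and 5, with 294 and 272 CPM of *Alb*, had 473.1 and 469.6 CPM. Without replicates 4 and 5 the log2 fold change on HFD was 4.04 (edgeR adjusted p = 6.44e-15) and the difference between the diets 1.85 (edgeR adjusted p = 0.000987). On chow *Alb* was at 1.62 CPM or less in every library, while the 16 liver genes summed to 70.1 to 180 CPM in C-3BO and 29.7 to 72.4 CPM in control mice, and to 93.9 to 281 CPM in CL and 98.2 to 406 CPM in saline mice. The part of liver RNA in the *Rbp4* values was not tested beyond the values without replicates 4 and 5.

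**Figure D3:**
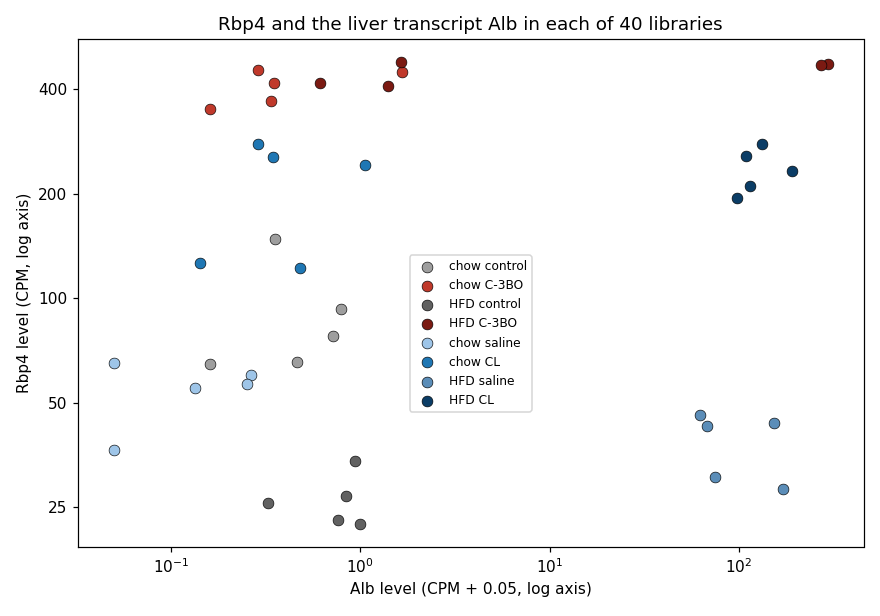
*Rbp4* level (vertical log axis, CPM) against the level of the liver transcript *Alb* (horizontal log axis, CPM with 0.05 added) with a point for each of 40 libraries, coloured by group. *Rbp4* was high in C-3BO and CL mice both with *Alb* near 0 and with *Alb* above 62.2 CPM, and was low in HFD saline mice, which had 62.2 to 170 CPM of *Alb*.

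*Lep*, the satiety hormone gene, was lower in C-3BO mice on both diets. In HFD control mice it was 859, 642, 161, 414 and 496 CPM, and in HFD C-3BO mice 190, 8.13, 131.5, 91.9 and 105 CPM. On chow, control mice had 152, 162, 280, 69.6 and 201 CPM and C-3BO mice 16.7, 96.5, 63.5, 15.5 and 65.7 CPM. In each comparison 4 of 5 C-3BO mice lay below all controls and the groups overlapped by a single mouse. The log2 fold change was -2.29 (SE 0.55, edgeR adjusted p = 0.00132) on HFD and -1.74 (SE 0.55, edgeR adjusted p = 0.0142) on chow, and the 2 did not differ by test (difference -0.55, interval -2.03 to 0.93, 95%, unadjusted). Without HFD C-3BO replicates 4 and 5 the value on HFD was -2.23 (edgeR adjusted p = 0.0151).

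In the injected mice *Lep* was 426, 447.5, 668, 386.0 and 204 CPM with saline on HFD and 219, 144, 388, 126 and 89.0 CPM with CL. On chow it was 78.8, 240.5, 110.3, 138 and 45.4 CPM with saline and 82.9, 174, 45.3, 55.8 and 50.6 CPM with CL. The CL means were the lower ones, but the ranges overlapped on both diets. The log2 fold change of -1.15 (SE 0.54, edgeR adjusted p = 0.119) on HFD and of -0.59 (SE 0.53, edgeR adjusted p = 0.506) on chow did not pass. The value on HFD passed when the 2 groups were fitted alone (-1.17, edgeR adjusted p = 0.0161) and without HFD CL replicate 3 (-1.56, edgeR adjusted p = 0.0473). Between C-3BO and CL the effects on *Lep* were not shown to differ, with a difference of -1.14 on HFD (interval -2.61 to 0.34, 95%, unadjusted) and -1.15 on chow (interval -2.64 to 0.34). Of the 7 steps in the order of group means, only that from HFD saline to HFD CL exceeded 1 SD. The 9 markers of white adipocytes summed to 468 to 1215 CPM in HFD control and 152 to 418.5 CPM in HFD C-3BO mice, to 298 to 822 and 180 to 291 CPM in chow control and chow C-3BO mice, and to 399 to 1283 and 197 to 409.7 CPM in HFD saline and HFD CL mice. Within this list *Hoxc8* went the other way on HFD, with 4.27 ± 3.24 CPM (SD, n = 5) in HFD control and 15.1 ± 10.4 CPM in HFD C-3BO mice. On chow it was 12.9 ± 2.56 CPM in control and 13.6 ± 2.41 CPM in C-3BO mice. *Hoxc9* and *Hoxc10* did not exceed 1.18 CPM in any library. The part of the white adipocyte markers in the *Lep* values was not tested.

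*Cfd*, the adipsin gene, was lower with CL on both diets. In chow saline mice it was 1703, 2551, 1871, 2084 and 3336 CPM, and in chow CL mice 816, 876, 970.1, 666 and 800.5 CPM. On HFD the saline mice had 507, 1492, 865, 856 and 1106 CPM and the CL mice 302.5, 234, 219, 283 and 379 CPM. No CL mouse reached the saline range on either diet. On the log2 scale the fold change was -1.48 (SE 0.32, edgeR adjusted p = 0.00125) on chow and -1.77 (SE 0.32, edgeR adjusted p = 9.58e-05) on HFD. Markers of other cells moved with these comparisons. On HFD the 6 fibroblast markers summed to 2340 to 3759 CPM in saline and 1139 to 2393 CPM in CL mice and the 7 macrophage markers to 270 to 683 and 112 to 353 CPM, and on chow the 9 muscle genes summed to 9.83 to 2327 CPM in saline and 10.7 to 128 CPM in CL mice. Their part in the *Cfd* values was not tested.

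In C-3BO mice *Cfd* was 837 ± 199 CPM (SD, n = 5) on chow, against 805 ± 480 CPM (SD, n = 5) in control mice, and 632 ± 267 against 746 ± 234 CPM on HFD. The log2 fold changes of 0.06 (interval -0.56 to 0.67) and -0.24 (interval -0.85 to 0.38, both 95% and unadjusted) had edgeR adjusted p = 0.915 and 0.591. Without HFD C-3BO replicates 4 and 5, which had the lowest values of their group at 254 and 524 CPM, the value on HFD turned to 0.09 (edgeR adjusted p = 0.871). The C-3BO effect lay above the CL effect by 1.54 (SE 0.45, edgeR adjusted p = 0.0316) on chow, where 6.24% of all genes differed between the treatments, and by 1.53 (edgeR adjusted p = 0.0648) on HFD, where 1.80% did. The chow value did not pass when any of 5 single libraries was left out (chow control replicate 1, chow C-3BO replicate 4, chow saline replicate 5 or chow CL replicate 4 or 5), with adjusted p up to 0.0647, and the HFD value passed without HFD C-3BO replicates 4 and 5 (1.86, edgeR adjusted p = 0.0349). Chow saline mice stood apart by level: at 2309 ± 656 CPM (SD, n = 5) they did not overlap with the next group in order, HFD saline with 965 ± 364 CPM (SD, n = 5), and they were above uninjected chow control mice, which belonged to another cohort and were not compared by test.

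*Apln*, the least abundant of the 7, rose with CL on both diets and with C-3BO on HFD. In HFD CL mice it was 42.5, 45.1, 27.9, 33.8 and 41.96 CPM, and in HFD saline mice 5.79, 12.8, 11.5, 24.1 and 6.99 CPM. The 24.1 CPM of HFD saline replicate 4, the library with the lowest total, rest on 24 counts. On chow the CL mice had 7.86, 7.83, 13.6, 26.2 and 9.24 CPM and the saline mice 5.40, 5.24, 4.38, 4.57 and 6.63 CPM. The groups did not overlap on either diet, although on chow replicate 4 alone accounted for much of the mean. Expressed as log2 fold change, the effect was 1.88 (SE 0.32, edgeR adjusted p = 3.06e-05) on HFD and 1.32 (SE 0.31, edgeR adjusted p = 0.00303) on chow, and without chow CL replicate 4 the latter was 0.88 (edgeR adjusted p = 0.0466).

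HFD C-3BO mice had 31.4, 36.1, 32.7, 36.9 and 29.1 CPM of *Apln* against 21.0, 17.7, 10.2, 14.1 and 12.6 CPM in HFD control mice, again without overlap. The log2 fold change of 1.13 (SE 0.28, edgeR adjusted p = 0.00188) was 1.14 without replicates 4 and 5 (edgeR adjusted p = 0.00858). On chow, C-3BO mice had 6.48, 12.7, 23.3, 22.5 and 12.9 CPM and control mice 13.1, 11.1, 13.5, 8.89 and 6.66 CPM, which overlapped (log2 fold change 0.55, SE 0.30, edgeR adjusted p = 0.152). The effect of C-3BO on HFD and that on chow were not shown to differ (difference 0.58, interval -0.22 to 1.38, 95%, unadjusted, edgeR adjusted p = 0.540).

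*Nampt*, the rate-limiting enzyme of NAD salvage, rose less and with less spread. It was 469 to 630 CPM in chow CL and 487 to 574 CPM in HFD CL mice, above the 337 to 436 CPM of chow saline and 287 to 419 CPM of HFD saline mice without overlap. In log2 terms the change was 0.51 (SE 0.12, edgeR adjusted p = 0.00360) on chow and 0.69 (SE 0.12, edgeR adjusted p = 7.35e-05) on HFD. In HFD C-3BO mice it was 444.9, 364, 427, 560.1 and 473.9 CPM against 283, 280, 295, 428 and 296 CPM in HFD control mice, where replicate 4 lay apart from the other 4 and inside the C-3BO range. HFD control replicate 4 also had the most *Ucp1* of its group, 9442 CPM against 2573, 2701, 5255 and 4544 CPM in the other 4. The log2 fold change of *Nampt* was 0.52 (SE 0.12, edgeR adjusted p = 0.00105), and 0.38 without HFD C-3BO replicates 4 and 5 (edgeR adjusted p = 0.0363). On chow C-3BO and control mice had nearly equal means, 451 and 453 CPM, with a log2 fold change of -0.01 (interval -0.25 to 0.23, 95%, unadjusted). The differences between these effects did not pass: 0.53 between the diets in C-3BO mice (edgeR adjusted p = 0.103) and -0.52 between C-3BO and CL on chow (edgeR adjusted p = 0.0652). The first passed with library totals alone (0.56, edgeR adjusted p = 0.0296) and without HFD control replicate 4 (0.64, edgeR adjusted p = 0.0223). The second passed with library totals alone (-0.57, edgeR adjusted p = 0.0157), with at least 10 counts in every library (-0.52, edgeR adjusted p = 0.0453), with DESeq2 (-0.51, DESeq2 adjusted p = 0.0434) and without chow C-3BO replicate 5 or chow CL replicate 3.

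*Adipoq* and *Retn* changed least with treatment. *Adipoq* was lower with CL on chow, at 916 to 1050 CPM against 1095 to 1740 CPM without overlap (log2 fold change -0.47, SE 0.13, edgeR adjusted p = 0.00830), and in chow C-3BO mice, at 972 to 1352 against 952 to 1823 CPM (log2 fold change -0.36, SE 0.13, edgeR adjusted p = 0.0269). The second call was lost without any of 6 single libraries (chow control replicate 3 or 4 or C-3BO replicate 1, 2, 4 or 5), where the value ranged down to -0.22, and in the fit of these 2 groups alone (-0.35, edgeR adjusted p = 0.104). On HFD *Adipoq* differed by -0.09 in C-3BO (interval -0.34 to 0.15) and by -0.18 with CL (interval -0.43 to 0.06, both 95% and unadjusted). None of the 7 steps in its order of groups exceeded 1 SD. *Retn* did not pass in any treatment comparison: its log2 fold changes were 0.25 and 0.53 for C-3BO on chow and HFD and -0.04 and 0.04 for CL, with standard errors from 0.31 to 0.34.

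Next, the change of diet was examined in each of the 4 backgrounds. HFD against chow gave 1 gene higher and 4 lower of 7 in control mice, beside 15.4% and 17.5% of all tested genes. In C-3BO mice 1 was higher and 1 lower, beside 13.5% and 12.2%. In saline mice 2 were higher and 2 lower, beside 7.45% and 8.04%, and in CL mice 1 was higher and 2 were lower, beside 10.9% and 12.7%. These comparisons reuse the groups of the treatment comparisons and are not independent of them. Diet dependence of the C-3BO effect was called for 2.09% of all genes and, among the 7, for *Rbp4*. For CL it was called for 0.0151% of all genes and for 0 of 7 by edgeR and by DESeq2, with 1 at an unadjusted p under 0.05, *Rbp4*.

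**Figure D4:**
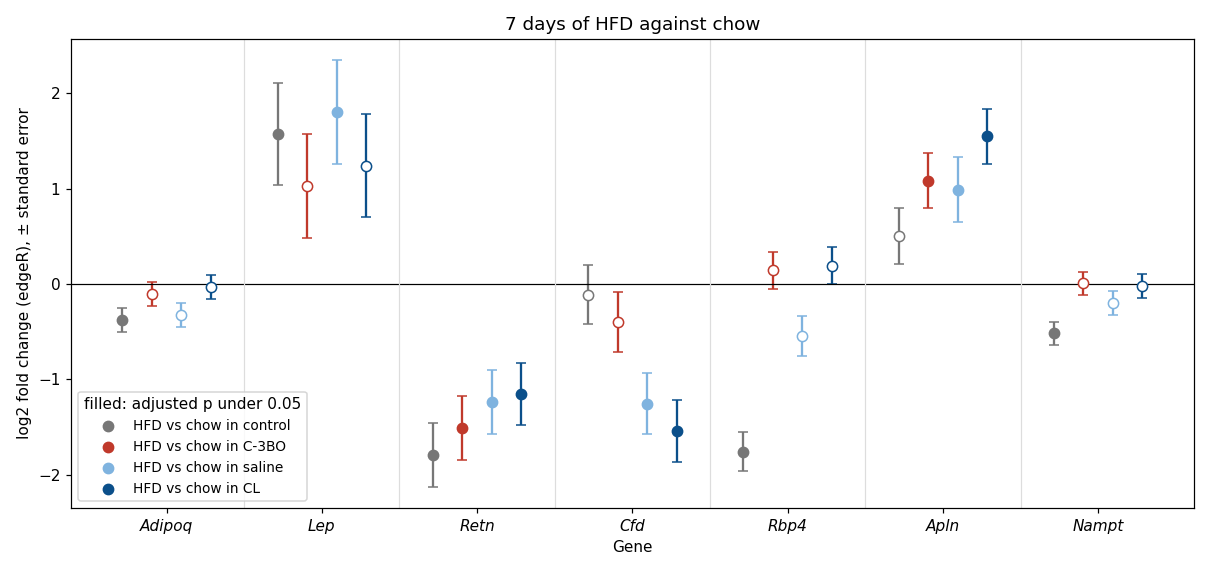
Log2 fold change of HFD against chow with its standard error (vertical axis) for each gene (horizontal axis) in control, C-3BO, saline and CL mice. Filled points passed an edgeR adjusted p of 0.05. *Retn* was lower on HFD in all 4 backgrounds (-1.79 to -1.15), while *Rbp4* and *Nampt* passed in control mice.

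*Retn* fell on HFD in every background. Control mice had 50.2, 32.6, 72.8, 58.8 and 58.4 CPM on chow and 23.7, 12.9, 13.2, 19.8 and 8.34 CPM on HFD, and C-3BO mice 35.9, 80.4, 113.6, 44.7 and 49.2 CPM on chow and 25.02, 15.3, 34.2, 19.4 and 19.5 CPM on HFD. Saline mice had 84.4, 49.5, 82.3, 98.6 and 97.1 CPM on chow and 10.3, 44.2, 53.5, 12.03 and 43.7 CPM on HFD, and CL mice 56.4, 96.4, 103.9, 78.3 and 65.3 CPM on chow and 55.7, 36.0, 29.4, 36.8 and 21.1 CPM on HFD. The 12.03 CPM of HFD saline replicate 4, the library with the lowest total, rest on 12 counts. Only the saline groups overlapped, by HFD saline replicate 3. On the log2 scale the fold change was -1.79 (SE 0.33, edgeR adjusted p = 6.59e-05) in control, -1.51 (SE 0.34, edgeR adjusted p = 0.000989) in C-3BO, -1.24 (SE 0.33, edgeR adjusted p = 0.00939) in saline and -1.15 (SE 0.33, edgeR adjusted p = 0.00927) in CL mice. In C-3BO mice without replicates 4 and 5 it was -1.39 (edgeR adjusted p = 0.0150). In the order of group means the 4 chow groups stood above the 4 HFD groups, and the step between chow control and HFD CL was the only one above 1 SD.

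*Lep* was higher on HFD, by 1.58 (SE 0.54, edgeR adjusted p = 0.0213) in control and 1.80 (SE 0.54, edgeR adjusted p = 0.0199) in saline mice, with 4 of 5 HFD mice above all chow mice in each. In C-3BO mice the difference was 1.03 (edgeR adjusted p = 0.172) and in CL mice 1.24 (edgeR adjusted p = 0.0918), and the latter passed when the 2 groups were fitted alone (1.26, edgeR adjusted p = 0.0308) and without chow CL replicate 2 (1.71, edgeR adjusted p = 0.0303). The call in control mice was lost without chow control replicate 4 or HFD control replicate 1, and that in saline mice without chow saline replicate 1 or 5 or HFD saline replicate 3, where the values were 1.31 to 1.69 with adjusted p up to 0.0716. That an effect passed in one background and not in another is no difference between them: the tests of the difference gave -0.55 for C-3BO and -0.56 for CL (edgeR adjusted p = 0.795 and 0.859).

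*Apln* was higher on HFD in C-3BO mice by 1.08 (SE 0.29, edgeR adjusted p = 0.00504) and in CL mice by 1.55 (SE 0.29, edgeR adjusted p = 0.000145), both without overlap. In saline mice it was higher by 0.99 (SE 0.34, edgeR adjusted p = 0.0411), a call lost without any of 7 single libraries (chow saline replicate 1, 2, 3 or 4 or HFD saline replicate 2, 3 or 4), and in control mice by 0.50 (edgeR adjusted p = 0.189). *Cfd* was lower on HFD in saline mice (-1.26, SE 0.32, edgeR adjusted p = 0.00604) and in CL mice (-1.54, SE 0.32, edgeR adjusted p = 0.000538), each without overlap, and differed by -0.11 in control (edgeR adjusted p = 0.822) and -0.40 in C-3BO mice (edgeR adjusted p = 0.377). In the injected mice every HFD library was among the 12 with liver and epididymis transcripts, so diet and that set cannot be told apart for the *Retn*, *Lep*, *Apln* and *Cfd* values of saline and CL mice.

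In control mice *Rbp4* fell by 1.76 on the log2 scale on HFD (SE 0.21, edgeR adjusted p = 5.74e-08), without overlap, and *Nampt* by 0.52 (SE 0.12, edgeR adjusted p = 0.00110), with 4 of 5 HFD mice below all chow mice. *Adipoq* was lower by a log2 fold change of -0.37 (SE 0.13, edgeR adjusted p = 0.0192), which was lost without chow control replicate 3 or 4 or HFD control replicate 2, with library totals alone (-0.23, edgeR adjusted p = 0.153) and in the 2 groups fitted alone (-0.37, edgeR adjusted p = 0.0924). In saline mice *Rbp4* differed by -0.54 (edgeR adjusted p = 0.0765), and in C-3BO and CL mice by 0.14 and 0.19 (edgeR adjusted p = 0.636 and 0.516). The 9 muscle genes summed to 700.1 to 8975 CPM in chow control and 5.04 to 194.5 CPM in HFD control mice, and to 357 to 3455 CPM in chow C-3BO mice, so that they moved with both comparisons of chow control mice. They also moved with diet in C-3BO mice, with 4.89 to 66.8 CPM on HFD. In saline mice they summed to 9.83 to 2327 CPM on chow and 18.05 to 1879 CPM on HFD. In CL mice they summed to 10.7 to 128 CPM on chow and 28.2 to 615 CPM on HFD. Their part in the diet values of the 7 genes was not tested in any background.

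The receptors of these proteins were measured in the same libraries. *Aplnr*, the apelin receptor, was lower in C-3BO mice, at 61.4 ± 21.6 CPM (SD, n = 5) against 117 ± 30.8 on chow and 123 ± 9.20 against 248 ± 41.9 CPM on HFD. Expressed as log2 fold change, the effect was -0.94 (SE 0.21, edgeR adjusted p = 0.000615) on chow and -1.01 (SE 0.20, edgeR adjusted p = 0.000172) on HFD. With CL on HFD *Aplnr* was higher, 254.5 ± 46.0 against 145 ± 20.6 CPM (log2 fold change 0.83, SE 0.21, edgeR adjusted p = 0.00306), and on chow the difference of 0.25 did not pass (edgeR adjusted p = 0.458). The 2 treatments thus differed in their effect on *Aplnr*, by -1.84 on HFD (SE 0.29, edgeR adjusted p = 0.000693) and by -1.19 on chow (SE 0.29, edgeR adjusted p = 0.0102). On HFD, ligand and receptor genes changed in opposite directions in C-3BO mice and in the same direction with CL. Without HFD C-3BO replicates 4 and 5 *Aplnr* differed by -0.97 (edgeR adjusted p = 0.00344). Endothelial cells are known to express *Aplnr*, and their 6 markers summed to 772 to 1210 CPM in chow control, 495 to 977 CPM in chow C-3BO, 1458 to 1962 CPM in HFD control, 1186 to 1397 CPM in HFD C-3BO, 1183 to 1290 CPM in HFD saline and 1314 to 1856 CPM in HFD CL mice. Their part in the *Aplnr* values was not tested.

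**Figure D5:**
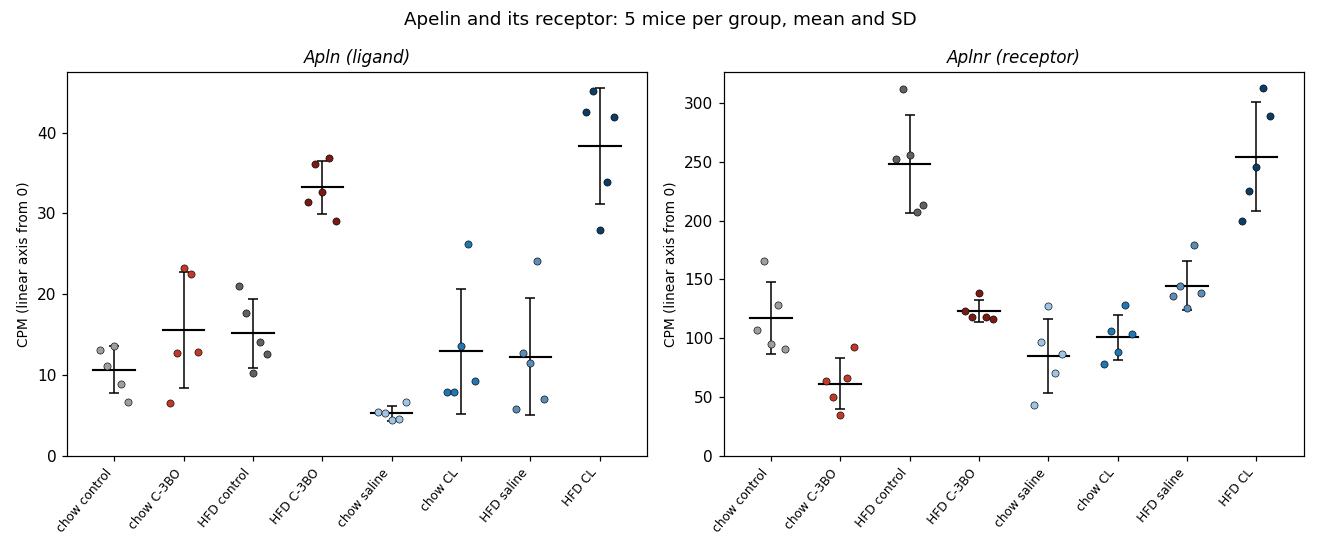
Level of the ligand gene *Apln* (left) and the receptor gene *Aplnr* (right) in CPM on linear axes from 0, in 8 groups of 5 mice, with a point per mouse and mean and SD as bars. In HFD C-3BO mice *Apln* was high and *Aplnr* low (33.2 and 123 CPM) beside HFD control mice (15.1 and 248 CPM), and in HFD CL mice both were high (38.3 and 254.5 CPM).

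*Adipor2*, the adiponectin receptor that signals mainly through PPARα in liver, rose with C-3BO, by 0.56 on chow (SE 0.12, edgeR adjusted p = 0.000360) and 0.36 on HFD (SE 0.12, edgeR adjusted p = 0.0135), and with CL on HFD by 0.40 (SE 0.12, edgeR adjusted p = 0.0103). On chow CL left it at 1445 ± 187 against 1416 ± 225 CPM (SD, n = 5, edgeR adjusted p = 0.905). *Adipor1* was lower in C-3BO mice on chow (-0.32, SE 0.07, edgeR adjusted p = 0.000623) and HFD (-0.22, SE 0.07, edgeR adjusted p = 0.0138), the latter lost without replicates 4 and 5 (-0.19, edgeR adjusted p = 0.0933). With CL its differences of -0.15 and -0.13 on chow and HFD did not pass (edgeR adjusted p = 0.138 and 0.184). *Cdh13*, which encodes T-cadherin, a protein that binds adiponectin at the cell surface, fell in C-3BO mice by 0.71 on chow and by 0.66 on HFD (edgeR adjusted p = 0.000404 and 0.000575). *Lepr*, the leptin receptor, and *Stra6*, a cellular receptor for *Rbp4* with its retinol, had 87 and 19 counts in all 40 libraries together and were not tested, so that a difference in either was not detectable at this depth.

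The pathways around the 7 genes were followed through lists of related genes, and the named genes are those with the largest changes among the called ones. For C-3BO on HFD each list was also counted without replicates 4 and 5, an alternative chosen after seeing the data. For every list below, the counts stand beside the shares of all tested genes that were higher and lower, which were 15.8 and 15.9% in the chow comparison of C-3BO mice, 19.3 and 15.5% in the HFD comparison, 14.6 and 10.4% of 13549 genes in the latter without replicates 4 and 5, 9.16 and 6.13% for CL on chow and 12.7 and 10.8% for CL on HFD. The median log2 fold change of the 9 lists ran from -0.53 to 0.22, -0.72 to 0.25, -0.34 to 0.23 and -0.59 to 0.35 in C-3BO on chow and HFD and CL on chow and HFD, with the median of all genes between -0.03 and -0.01. Of 12 tested genes of the adiponectin axis, 2 were higher and 5 lower in C-3BO on chow, 2 and 6 on HFD (2 and 3 of 13 tested without those replicates), 0 and 1 with CL on chow and 2 and 2 with CL on HFD. Beside the receptors, *Erp44*, an endoplasmic reticulum chaperone that retains adiponectin, differed by -0.57 in C-3BO on chow (edgeR adjusted p = 3.07e-05). *C1qtnf9*, a relative of adiponectin, was at 52.5 ± 7.13 in HFD C-3BO and 88.1 ± 18.3 CPM in HFD control mice (log2 fold change -0.75, edgeR adjusted p = 0.000229), with *C1qtnf2* at -0.85 (edgeR adjusted p = 0.0471) and, without replicates 4 and 5, at -0.86 (edgeR adjusted p = 0.0989). With CL, *C1qtnf1* was lower on chow (-0.45, edgeR adjusted p = 0.0289). With CL on HFD, *C1qtnf7* (-2.10, edgeR adjusted p = 0.00742) and *C1qtnf2* (-1.14, edgeR adjusted p = 0.0308) were lower and *Ero1l* was higher (0.43, edgeR adjusted p = 0.04996). *C1qtnf7* had 0.376 ± 0.420 CPM in HFD CL and 2.0 ± 1.2 CPM in HFD saline mice. *C1qtnf2* had 1.14 ± 0.682 and 2.28 ± 1.30 CPM in these groups. In HFD C-3BO and HFD control mice *C1qtnf2* had 1.61 ± 0.597 and 2.945 ± 1.01 CPM. All of these means lay within the range of the floor (0.206 to 3.01 CPM).

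In the leptin list 8 genes were tested. In C-3BO mice 2 were higher and 3 lower on chow and 2 were higher and 2 lower on HFD (2 and 1 without replicates 4 and 5), and with CL 1 was higher on chow, and 1 was higher and 3 were lower on HFD. *Ptpn1*, a phosphatase that dampens leptin and insulin signals, rose in C-3BO (0.39, edgeR adjusted p = 0.000132) and with CL (0.21, edgeR adjusted p = 0.0491) on chow, and the related *Ptpn2* in C-3BO mice fed HFD (0.28, edgeR adjusted p = 0.0358). *Jak2*, the kinase bound to the leptin receptor, was lower in chow C-3BO mice (-0.31, edgeR adjusted p = 0.0405), *Leprot* in C-3BO mice fed HFD (-0.25, edgeR adjusted p = 0.0165, and -0.24 with 0.0564 without replicates 4 and 5), and *Sh2b1* with CL on HFD (-0.29, edgeR adjusted p = 0.00273). *Socs3*, an inhibitor that leptin signalling induces, had 3.53 ± 1.34 CPM in HFD CL and 9.05 ± 7.33 CPM in HFD saline mice (log2 fold change -1.05, edgeR adjusted p = 0.0225). *Lepre1*, also in the list, encodes a collagen prolyl hydroxylase despite its symbol and was lower in C-3BO on chow (-0.67) and HFD (-0.49) and with CL on HFD (-0.49, edgeR adjusted p = 0.000120, 0.00321 and 0.00603). Of 4 tested genes around resistin, those that passed were lower: *Cap1*, a proposed resistin receptor, in C-3BO on chow (-0.18) and HFD (-0.30) and with CL on HFD (-0.26, edgeR adjusted p = 0.0290, 0.000289 and 0.00306), the innate immune receptor *Tlr4* in C-3BO mice fed HFD (-0.63, edgeR adjusted p = 0.0132, and -0.49 with 0.106 without replicates 4 and 5) and *Ror1* with CL on chow (-1.81, edgeR adjusted p = 0.00317). *Ror1* had 0.442 ± 0.157 CPM in chow CL and 1.63 ± 0.83 CPM in chow saline mice, within the range of the floor (0.206 to 3.01 CPM).

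Around adipsin, *C3*, the central complement protein, rose in C-3BO on chow (1.54, SE 0.32, edgeR adjusted p = 0.000364) and HFD (1.24, SE 0.32, edgeR adjusted p = 0.00266) and with CL on HFD (1.22, SE 0.32, edgeR adjusted p = 0.00532). The level of *C3* was 898.5 ± 140.5 in HFD C-3BO and 381.5 ± 199 CPM in HFD control mice, and 899.5 ± 83.9 with CL and 387 ± 162 CPM with saline on HFD. It therefore rose with CL on HFD where *Cfd* fell. Of 10 tested complement genes, *C3* was the 1 that passed in chow C-3BO mice. In HFD C-3BO mice *C3* passed with and without replicates 4 and 5 (1.25 without, edgeR adjusted p = 0.0106), and *Cfi*, an inhibitor of complement made in liver, passed (edgeR adjusted p = 0.00573) with 2.65 and 3.28 CPM in those replicates and 0 counts in the other 3, so that its call rests on them (edgeR adjusted p = 0.264 without). With CL on HFD, *C5ar1*, a receptor on myeloid cells (-1.21, edgeR adjusted p = 0.00332), and *Cd59a*, which blocks the membrane attack complex (-0.77, edgeR adjusted p = 5.13e-05), were lower. The 7 macrophage markers in the table summed to 270 to 683 CPM in HFD saline and 112 to 353 CPM in HFD CL mice, and their part in the *C5ar1* values was not tested. With CL on chow 0 of 10 passed by edgeR, and 0 had an unadjusted p under 0.05.

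Among 9 tested genes of retinoid transport, 2 were higher and 3 lower in C-3BO on chow and 2 and 2 on HFD (1 and 2 without replicates 4 and 5), and 1 was higher and 1 lower with CL on each diet. *Rdh10*, which oxidizes retinol, was lower in C-3BO on chow (-0.94, SE 0.12, edgeR adjusted p = 2.46e-07) and HFD (-0.65, SE 0.12, edgeR adjusted p = 5.79e-05). On chow *Aldh1a1*, which makes retinoic acid, was lower as well (-0.75, edgeR adjusted p = 0.0336), and *Rbp7*, a cellular retinol binding protein, was higher (0.68, edgeR adjusted p = 0.0448). The retinoic acid receptor gene *Rara* rose with CL on chow (0.89, edgeR adjusted p = 2.61e-05) and HFD (0.78, edgeR adjusted p = 0.000161), while *Rarb* was lower in C-3BO mice fed HFD (-0.64, edgeR adjusted p = 0.000947) and with CL on chow (-0.46, edgeR adjusted p = 0.0273) and HFD (-0.48, edgeR adjusted p = 0.0284). *Ttr*, the plasma partner of *Rbp4* and a liver transcript, passed in C-3BO mice fed HFD (5.95, edgeR adjusted p = 0.000323) with 13.7 and 16.8 CPM in replicates 4 and 5 and at most 0.245 CPM in the other 3, so that the call rests on those 2 libraries (0.03, edgeR adjusted p = 0.995 without them).

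For NAD, 3 of 11 tested genes were higher and 1 lower in C-3BO on chow, 2 and 1 on HFD, 3 and 1 with CL on chow and 5 and 0 with CL on HFD. *Nadk*, which makes NADP, rose in C-3BO on chow (0.65) and HFD (0.66) and with CL on HFD (0.63, edgeR adjusted p = 4.89e-06, 2.45e-06 and 1.26e-05). *Nnmt*, which uses up nicotinamide, the substrate of *Nampt*, rose in HFD C-3BO mice (1.71, SE 0.27, edgeR adjusted p = 4.98e-06) and with CL on chow (1.07, SE 0.28, edgeR adjusted p = 0.00823) and HFD (1.24, SE 0.28, edgeR adjusted p = 0.00123). *Nmnat1*, the step after *Nampt* in the nucleus, rose with CL on chow (0.89, SE 0.09, edgeR adjusted p = 3.89e-08), where *Sirt1*, an NAD-dependent deacetylase, was lower (-0.41, edgeR adjusted p = 0.0183). *Nadsyn1* rose in chow C-3BO mice (0.56, edgeR adjusted p = 0.00328) and with CL on HFD (0.63, edgeR adjusted p = 0.00356), and *Cd38*, which degrades NAD, was lower in C-3BO on chow (-0.57, edgeR adjusted p = 0.00895) and HFD (-0.58, edgeR adjusted p = 0.00537). In the apelin list of 4, beside *Aplnr*, *Apela* (-1.43, edgeR adjusted p = 0.0367) and *Agtr1a* (-0.42, edgeR adjusted p = 0.0468) were lower in HFD C-3BO mice. Without replicates 4 and 5 the values were of like size, -1.28 and -0.44, and did not pass with fewer libraries (edgeR adjusted p = 0.129 and 0.0956). *Apela* had 0.389 ± 0.283 CPM in HFD C-3BO and 1.11 ± 0.501 CPM in HFD control mice, within the range of the floor (0.206 to 3.01 CPM). With CL on chow 0 of 4 passed by edgeR or at an unadjusted p under 0.05.

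Of 21 other secreted factors of fat tested, 1 was higher and 7 lower in C-3BO on chow, 3 and 8 on HFD (2 and 7 without replicates 4 and 5), 1 and 3 with CL on chow and 1 and 8 with CL on HFD. *Hp*, haptoglobin, was lower in C-3BO on chow (-1.50, SE 0.26, edgeR adjusted p = 3.38e-05) and HFD (-2.13, SE 0.27, edgeR adjusted p = 8.93e-08) and with CL on HFD (-1.99, SE 0.27, edgeR adjusted p = 6.71e-07). *Angptl4*, an inhibitor of lipoprotein lipase, was lower in chow C-3BO (-1.09, edgeR adjusted p = 0.0130) and HFD CL mice (-1.83, edgeR adjusted p = 0.000179), and chemerin (*Rarres2*) in chow C-3BO (-1.01, edgeR adjusted p = 0.00204) and chow CL mice (-0.88, edgeR adjusted p = 0.0121). *Ccdc80* was lower with CL on chow (-0.80, edgeR adjusted p = 0.0254). *Bmp8b*, a factor of brown fat, rose from 0.0729 to 4.31 ± 5.72 CPM in HFD C-3BO mice and with CL from 1.80 to 6.03 ± 2.93 CPM on chow and from 1.15 to 8.06 ± 3.56 CPM on HFD (SD, n = 5, edgeR adjusted p = 1.60e-05, 0.0409 and 0.00232), with 14.5 CPM in HFD C-3BO replicate 4 and 0.734 to 2.46 CPM in the other 4. The HFD control mean of 0.0729 CPM lay below the lowest floor of 0.206 CPM, so that rise has no measured starting level. *Agt* passed in C-3BO mice fed HFD (2.30, edgeR adjusted p = 0.00167), where replicate 5 had 8.81 CPM, and not without replicates 4 and 5 (1.16, edgeR adjusted p = 0.162).

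Among 15 transcription factors and cofactors known to act on adipokine genes, 5 were higher and 1 lower in C-3BO on chow, 4 and 1 on HFD (3 and 0 without replicates 4 and 5), 0 and 4 with CL on chow and 1 and 0 with CL on HFD. *Cebpb* rose in C-3BO mice, from 85.1 ± 32.2 to 220.5 ± 22.7 CPM on chow (1.38, SE 0.26, edgeR adjusted p = 7.62e-05) and from 68.0 ± 29.7 to 218 ± 59.5 CPM on HFD (1.68, SE 0.26, edgeR adjusted p = 3.13e-06). With CL on chow it was lower (-0.79, SE 0.25, edgeR adjusted p = 0.0284), and the 2 treatments differed by 2.17 on chow (edgeR adjusted p = 0.000171). *Hif1a* rose on HFD in C-3BO (0.71, edgeR adjusted p = 4.85e-06) and CL mice (0.42, edgeR adjusted p = 0.00671), and *Srebf1* in chow C-3BO mice (0.60, edgeR adjusted p = 0.0244). *Atf3* was lower in chow C-3BO (-1.41, edgeR adjusted p = 0.0360) and chow CL mice (-1.58, edgeR adjusted p = 0.0161), *Foxo1* in chow CL mice (-0.51, edgeR adjusted p = 0.00115) and *Ppara* in C-3BO mice fed HFD (-0.52, edgeR adjusted p = 0.0141, and -0.32 with 0.201 without replicates 4 and 5). The level of *Atf3* was 1.35 ± 0.46 CPM in chow C-3BO and 3.675 ± 1.41 CPM in chow control mice. It was 2.765 ± 1.215 CPM in chow CL and 8.35 ± 9.43 CPM in chow saline mice, where the SD exceeded the mean.

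Finally, the genes whose levels ran most in parallel with each adipokine were listed by Pearson's r of log2 CPM over 40 libraries, as a description without a test, since the libraries share groups and depth. *Rbp4* ran with *Elovl3* (r = 0.95), *Lyplal1* (0.93) and *Acot12* (0.92), and over the 28 libraries with no count of *Lcn8* and little *Alb* r was 0.94, 0.92 and 0.93. *Lep* ran with *Amotl2* (0.91), *Fam20c* (0.86) and *A430105I19Rik* (0.86), and *Retn* with the mitochondrial carrier genes *Slc25a10* (0.92) and *Slc25a1* (0.82) and with transferrin, *Trf* (0.84). Over the 28 libraries r was 0.91, 0.86 and 0.86 for *Lep* and 0.94, 0.86 and 0.90 for *Retn*. *Nampt* ran with *Ppp1r3b* (0.88 over all and over 28), *Serp1* (0.86, then 0.80) and *Tmem135* (0.85, then 0.78). *Cfd* ran with *Net1* (0.80, then 0.75), *Elane* (0.76, then 0.65) and *Slc5a6* (0.76, then 0.63), *Apln* with *F2r* (0.83, then 0.79), *Anxa5* (0.82, then 0.77) and *BC028528* (0.80, then 0.72), and *Adipoq*, among other genes, with *Rpl32* (0.78, then 0.81) and *Tmed3* (0.76, then 0.75). For the deviations from group means, r was 0.43, 0.07 and 0.038 for the genes named with *Rbp4* and 0.057, 0.47 and 0.36 for those named with *Apln*. It was 0.38, 0.57 and 0.41 for those named with *Cfd*, and 0.52 to 0.83 for those named with *Adipoq*, *Lep*, *Retn* and *Nampt*. The parallel of *Lyplal1* and *Acot12* with *Rbp4* and of *F2r* with *Apln* thus lay mostly in the group means.

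Among the 7 genes themselves, *Adipoq* and *Cfd* had the highest r, 0.71 over 40 libraries and 0.82 for the deviations from group means, so mice of a group with more *Adipoq* tended to have more *Cfd*. *Rbp4* and *Nampt* had 0.70 over libraries and 0.43 for the deviations. The lowest values were -0.65 for *Cfd* and *Apln* and -0.62 for *Lep* and *Rbp4*, which were 0.03 and 0.14 for the deviations.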

How the data were processed

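RNA was sequenced from BAT of 40 mice in 8 groups of 5. Per the labels and the study's methods, the authors prepared poly(A) libraries, aligned reads to mm9 with STAR and deposited raw counts per RefSeq gene over exons from iRNA-seq. Tool versions and strandedness are not given in the sources used here, so reads of antisense partners may not be separated. From the deposited counts, genes were filtered with filterByExpr (minimum count 10), scaled by TMM and tested with edgeR 4.0.16 (R 4.3.3) by the quasi-likelihood test with 1 mean per group. Benjamini-Hochberg adjusted p under 0.05 over 13277 genes gave a call. CPM used TMM-scaled totals, and log2 CPM a prior count of 2. The floor of 3 counts covers counting error only. The intervals (95%, from the SE of the fit) include the spread among the mice of a group, as estimated over all 8 groups. Replicates were taken as separate mice, since n in the study's animal work counts animals. Totals ran from 849126 to 15260516 counts. Alternatives were DESeq2 1.42.0, library totals alone, RLE factors, other filters, fewer libraries and a replicate block. All 7 genes were named in each comparison, with the 3 largest called changes of each related list and the receptors of leptin, adiponectin, apelin and *Rbp4* in every case. The members and lists were chosen with earlier results of these data known. Promoters were read from mm9, and motif shares come from RefSeq windows of GRCm38.p6. Figures used matplotlib 3.10.9. A gene among those most like *Adipoq* is not reported here.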

Additional observations from a re-analysis of the deposited data

Results flagged for a closer look

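Of 56 sets of 5 mice (7 genes in 8 groups), 2 held a mouse far from the others by Dixon's ratio (critical value 0.71), and chance gives about 1 in 20. *Adipoq* was 1352 CPM in chow C-3BO replicate 3 and 972 to 1028 CPM in the other 4. *Nampt* was 428 CPM in HFD control replicate 4 and 280 to 296 CPM in the other 4.

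3 effects differed between diets or treatments by the edgeR interaction test. Over all tested genes, the C-3BO effect differed between the diets for 2.09% and the CL effect for 0.0151%. Between C-3BO and CL the effect differed for 6.24% on chow and 1.80% on HFD. The C-3BO effect on *Rbp4* was larger on HFD than on chow by 1.90 (edgeR adjusted p = 8.67e-05), and was larger than that of CL on HFD by 1.44 (edgeR adjusted p = 0.00472). The effects of C-3BO and CL on *Cfd* on chow were apart by 1.54 (edgeR adjusted p = 0.0316). That call was lost without any of 5 single libraries (edgeR adjusted p up to 0.0647).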

How the results depend on the processing

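Of the calls among the 7 genes, none changed direction under any setting tried. The number of genes called moved with the replicate block to 3 for CL on chow (from 5), to 2 for HFD in saline mice (from 4) and to 2 for the diet difference of the C-3BO effect (from 1, *Nampt* added). Calls over all genes moved as well. For CL on chow, 530 were higher and 356 lower of 12429 in the block, from 1216 and 814 of 13277. For HFD in saline mice the numbers were 423 and 448 of 12212, from 989 and 1068. For the diet difference they were 249 and 130 of 12802, from 181 and 97. The replicate numbers were not taken to pair the mice, since in no comparison did all 5 same-numbered pairs correlate above 0.1 (0 to 3 did, 3 in C-3BO on chow, with mean r from -0.136 to 0.172), so a call lost in the block is not read as a weaker effect. *Lep* was called in the block with CL on HFD (-1.25, edgeR adjusted p = 3.95e-05) and by diet in CL mice (1.24, edgeR adjusted p = 0.0218). Calls lost were *Adipoq* and *Apln* for CL on chow, *Retn* and *Apln* for HFD in saline, and *Adipoq* in chow C-3BO and HFD control mice. Counts became 2 (from 1) for the C-3BO diet difference with library totals alone, for C-3BO against CL on chow with library totals alone, with at least 10 counts in every library and with DESeq2, each time by *Nampt*, and for C-3BO against CL on HFD with the compared libraries only, without HFD C-3BO replicates 4 and 5 and with DESeq2, each time by *Cfd*. Over all genes, 283 were then higher and 74 lower for the C-3BO diet difference. For C-3BO against CL on chow the numbers were 271 and 583, 367 and 414, and 511 and 571 in the order given, from 376 and 452. On HFD they were 86 and 187, 41 and 72, and 123 and 177, from 100 and 139. Leaving out 1 library each gave 3 to 5 for HFD in control mice (3 without chow control replicate 4), 2 to 4 in saline mice (2 without chow saline replicate 1 or HFD saline replicate 3), 1 to 2 for the C-3BO diet difference (2 without HFD control replicate 4), 0 to 2 for C-3BO against CL on chow and 1 to 2 on HFD. The numbers over all genes are not given for these fits.

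Values that changed sign belonged to genes that were not called. With library totals alone these were *Cfd* in chow C-3BO (-0.17), *Retn* with CL on HFD (-0.11), *Cfd* by diet in control (0.022), *Adipoq* by diet in C-3BO (0.079) and CL (0.14) and *Nampt* by diet in CL mice (0.15), a scale that moved the median of all genes to between 0.15 and 0.21 in the diet comparisons and the share of higher genes among those called from 46.1 to 52.6% to 71.3 to 84.7%. Without a filter *Nampt* was 0.0062 in chow C-3BO and -0.018 by diet in C-3BO mice, where it was also -0.019 with 10 counts in every library, -0.014 with the compared libraries only, -0.13 without replicates 4 and 5 and -0.0145 in the block. *Nampt* by diet in CL mice was 0.0030 with RLE factors, 0.010 with 10 counts in every library, 0.0048 in the block and 0.0031 with DESeq2. *Cfd* by diet in control mice was 0.094 in the block. Without HFD C-3BO replicates 4 and 5 *Cfd* was 0.091 in HFD C-3BO mice and its diet difference 0.0345. Leaving out 1 library gave, for chow C-3BO, *Retn* -0.015 to 0.40, *Cfd* -0.19 to 0.45 and *Nampt* -0.079 to 0.076. With CL, *Retn* ran from -0.19 to 0.060 on chow, from -0.20 to 0.28 on HFD and from -0.15 to 0.32 for the diet difference. By diet, *Cfd* ran from -0.35 to 0.26 in control, and *Nampt* from -0.10 to 0.080 in C-3BO and -0.071 to 0.037 in CL mice. The cause was not tested.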
